A study of Homo sapiens with 16 samples.

Results

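The response of U2OS cells to Nutlin-3a after knockdown of the transcription factor RFX7 was described across all genes measured. It rests on 8 of the series' 16 libraries, chosen by their titles: 4 from cells with a siRNA against RFX7 (siRFX7) and Nutlin-3a, and 4 from cells with the same siRNA and DMSO. U2OS is an established human osteosarcoma line, and poly(A) RNA of its cells was sequenced. The treatment was 10 µM Nutlin-3a or the solvent DMSO for 24 h in every group. The other 8 libraries carried a control siRNA (siControl) under the same treatments, 4 with each, and serve here only as the reference for the size of the response. All groups share one cell line with one genetic background, and the labels do not say whether the 4 libraries of a group came from separate cultures, so the errors below may be technical.

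Nutlin-3a occupies the pocket of MDM2, the ubiquitin ligase that binds p53 and marks it for degradation, so p53 accumulates without DNA damage. Stabilised p53 binds DNA as a tetramer and activates genes for cell cycle arrest, apoptosis, repair and metabolism, and MDM2 itself, which closes a feedback loop. The inhibitor CDKN1A (p21) blocks cyclin-dependent kinases, and the DREAM and RB complexes then hold down the genes of replication and mitosis. RFX7 belongs to the regulatory factor X family, whose members bind DNA through a winged helix, and is itself known as a mediator in the p53 network.

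The values came from the authors' deposited tables, each a comparison of 2 groups of 4 libraries, which hold no value of a single library. A response below is the log2 fold change of Nutlin-3a over DMSO with the authors' standard error (SE). A gene was called at a deposited adjusted p under 0.05. The level of a gene is its base mean, the mean normalised count over the 8 libraries of a comparison, and counts are not divided by transcript length. Where levels under each treatment are given, they are counts implied by the base mean and the log2 fold change of groups of equal size, an approximation.

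RFX7 (ENSG00000181827, chromosome 15, 56087280 to 56243266, GENCODE 29 on GRCh38) was knocked down, not removed. With siRFX7 its mRNA stood at 18.6% of siControl under DMSO and 19.4% under Nutlin-3a, and in the authors' deposited table it rose with Nutlin-3a by 0.30 ± 0.089 (adjusted p 0.00262). Both marker genes of p53 activity rose in siRFX7 cells. CDKN1A (ENSG00000124762, chromosome 6, 36676460 to 36687339) went from 4717 to 37191 implied normalised counts and MDM2 (ENSG00000135679, chromosome 12, 68808176 to 68850686) from 3577 to 24263. The osteoblast lineage list of 11 genes had 8 with a row, of which 5 reached a base mean of 100. SPARC and COL1A1 stood at base means of 27571 and 37048 and ALPL at 330, while SP7, IBSP and TWIST1 had no row and were not analysed here. Of 10 markers of other cell types, 2 had a row, CDH1 and EPCAM, at 183 and 201 normalised counts. Of the 8 osteoblast markers with a row 1 was called in the authors' deposited table, SPP1 at 0.72 ± 0.18, where 39.1% of all genes were called. The base means of the siRFX7 comparison added up to 27946376 normalised counts per library.

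Nutlin-3a changed the level of many genes in RFX7-depleted cells. Of 21382 genes in the authors' deposited table, 8355 (39.1%) were called, of which 4006 (18.7%) rose and 4349 (20.3%) fell. Large changes were mostly rises: 595 genes (2.78%) rose by at least 1 and 267 (1.25%) fell by as much, while 200 (0.935%) rose by at least 2 and 10 (0.0468%) fell by at least 2. A rise of at least 3 was seen for 72 genes (0.337%), and no gene fell that far. Part of this skew lay in low levels. Among the 12867 genes at base means of 100 or more, 56.3% were called, 24.8% higher and 31.5% lower. Of these genes 174 (1.35%) rose and 177 (1.38%) fell by at least 1, 48 (0.373%) rose by at least 2 and none fell by 2. The median response of these 12867 genes was -0.026. In bulk RNA, fewer cells of a kind (such as cells in S phase) and less RNA per cell cannot be told apart.

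What could be detected depended on the level. The median SE was 0.649 for genes with a base mean under 10, of which 4.03% were called, and 0.286 from 10 to 100, where 18.8% were called. From 100 to 1000 the median SE was 0.0887 with 49.8% called, and at 1000 and over it was 0.0499 with 63.7% called. At low levels a response that was not called may be absent or too small for these errors.

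**Figure D1:**
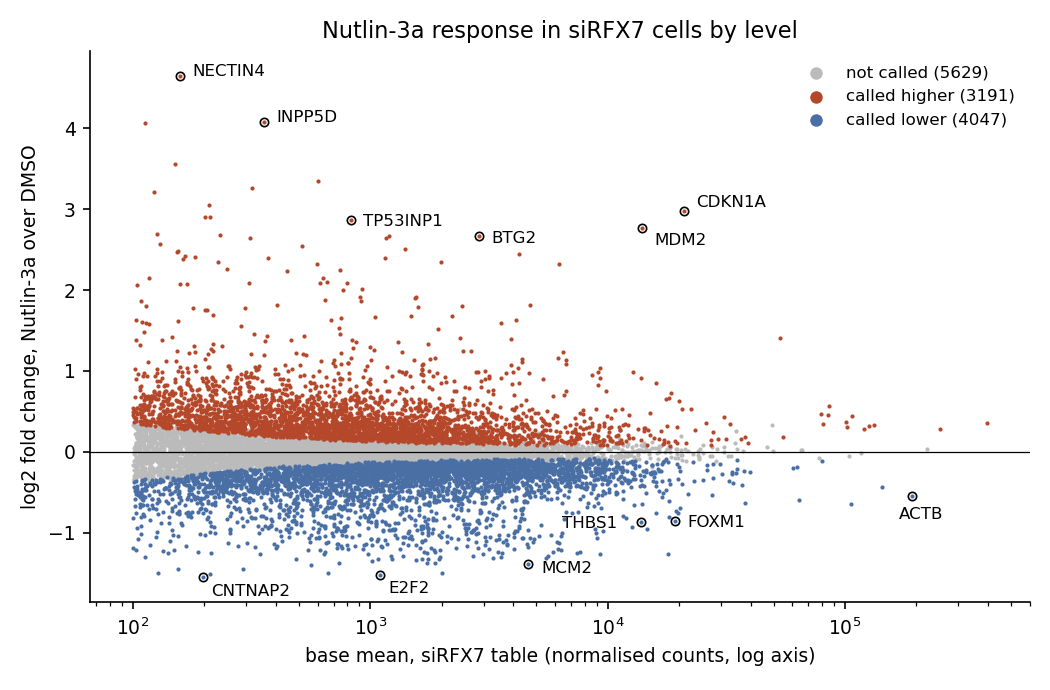
Each point is a gene of the siRFX7 comparison whose base mean was 100 or more (horizontal log axis, normalised counts), against its log2 fold change of Nutlin-3a over DMSO (vertical axis). Of 12867 genes, 3191 were called higher (red), 4047 were called lower (blue) and 5629 were not called (grey), and the circled genes are named in the text.

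Among genes at base means of 100 or more, the highest responses were those of known p53 targets and of genes with low levels under DMSO. NECTIN4, a cell adhesion protein (ENSG00000143217, chromosome 1, 161070995 to 161089599), went from 12.1 to 304 implied normalised counts, a response in the authors' deposited table of 4.65 ± 0.23 (adjusted p 3.14e-90). INPP5D, the phosphatase SHIP1 that removes a phosphate from the lipid PIP3, went from 39.8 to 671 (4.08 ± 0.14 in the authors' deposited table). For neither was the difference from the siControl response called, with 95% intervals of -0.59 to 0.55 and -0.15 to 0.53. WDR63 (4.06), TSPAN11 (3.56), the antisense RNA FLG-AS1 (3.35), CSMD3 (3.27), GRIN2C (3.21) and SUGCT (3.05) followed in the authors' deposited table. CDKN1A (2.98 ± 0.035), TP53INP1 (2.87 ± 0.076) and MDM2 (2.76 ± 0.045) stood among the 15 highest in the authors' deposited table with SCN2A (2.90), ACTA2 (2.90), OPCML (2.70) and NBEAP1 (2.68). SCN2A encodes a neuronal sodium channel subunit, GRIN2C a glutamate receptor subunit and OPCML a neural adhesion protein, and ACTA2 is smooth muscle actin, next to FAS in the genome. NBEAP1 is a pseudogene whose reads may be shared with a related gene, and whether counting used strand is not given in the sources used here, so FLG-AS1 is uncertain too.

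At the same base means the lowest responses were mostly those of replication genes. Of the 15 lowest in the authors' deposited table, 9 belong to the list of G1/S and replication genes given further on: E2F2 (-1.52), ZNF367 (-1.50), FAM111B (-1.49), CCNE2 (-1.45), E2F8 (-1.40), MCM2 (-1.39), CDC45 (-1.38), CDT1 (-1.38) and MCM10 (-1.33). The recombination factor RAD54L (-1.35) and the kinase inhibitor CDKN2C (p18, -1.38) stood beside them in the authors' deposited table. The lowest of all was CNTNAP2, a neuronal adhesion protein (ENSG00000174469, chromosome 7, 146116002 to 148420998), which went from 295 to 101 implied normalised counts (-1.55 ± 0.13 in the authors' deposited table, adjusted p 3.49e-30). CXCL8, the neutrophil chemokine interleukin-8, LTB, a membrane-anchored lymphotoxin subunit, and the homeobox gene HMX2 were the other three, at -1.51 ± 0.12, -1.49 ± 0.14 and -1.45 ± 0.14 in the authors' deposited table.

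By number of normalised counts, the losses lay elsewhere, in genes of the cytoskeleton and a chaperone. ACTB and ACTG1, the cytoplasmic actins, went from 226617 to 155135 implied normalised counts and from 76605 to 50929. The tubulins TUBB and TUBA1B went from 129315 to 82769 and from 45890 to 29658, and the chaperone HSPA8 from 164375 to 121458. Mitochondrially encoded transcripts took up 4.89% of all implied counts under DMSO and 6.44% under Nutlin-3a, over 27 rows. Of the 13 mitochondrial mRNAs, 11 were called higher and 2 not (MT-ND6 at 0.53 ± 0.26 and MT-ND4L at 0.26 ± 0.14), with a median of 0.33 in the authors' deposited table. MT-ND4, a subunit of complex I, was at 0.36 ± 0.12 and the ribosomal RNA MT-RNR2 at 0.56 ± 0.096 in the authors' deposited table. The part of this shift in the other responses was not tested.

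How much of the response remained with RFX7 lowered was read against siControl. The siControl comparison, which shares no library with the siRFX7 one, held 23353 genes, of which 8853 (37.9%) were called, 18.3% of all higher and 19.6% lower. Of 8353 genes called in siRFX7 and present in both tables, 6781 (81.2%) were called in siControl in the same direction: 3150 rose in both and 3631 fell in both. Among genes called in siControl that share was 77.5% of 8749. The difference of the responses (siRFX7 minus siControl) was tested per gene with a 2-sided normal test on the summed squared SEs and Benjamini-Hochberg adjustment over 21339 genes. It was called for 200 genes (0.937%), lower for 163 (0.764%) and higher for 37 (0.173%). At base means of 100 or more it was called for 190 of 12867 genes (1.48%), lower for 153 (1.19%) and higher for 37 (0.288%). The whole 95% interval of the difference lay within 0.5 either way for 92.7% of these genes and for 56.7% of all.

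Genes induced at least 2-fold, a log2 response of 1 or more, kept most of their induction. Of 239 such genes in siControl (1.77% of those at base means of 100 or more there), all had a response above 0 in siRFX7 and 235 were called higher. The authors' deposited tables gave them a median response of 1.43 with siControl and 1.33 with siRFX7, and the median share of the siControl response was 95.3%. The difference was called for 29 of them, lower for 25 and higher for 4. Choosing genes by 1 table favours that table, so the choice was also reversed. Among the 174 genes chosen in siRFX7, the medians in the authors' deposited tables were 1.40 in siRFX7 and 1.45 in siControl, 173 were called higher in siControl, and the difference was called lower for 7 and higher for 8. Taken gene by gene, the median difference was 0.030 for these 174, with 43.1% below 0. For the 239 chosen in siControl it was -0.063, with 65.3% below 0.

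Repression went the other way. The 177 genes that fell by at least 1 in siRFX7 had medians of -1.14 in siRFX7 and -0.98 in siControl in the authors' deposited tables, and the 30 called differences among them were all lower in siRFX7. That comparison favours siRFX7 by its choice of genes. Among the 87 genes (0.643%) that fell by at least 1 in siControl, where the choice favours siControl, the medians in the authors' deposited tables were still lower in siRFX7, at -1.20 against -1.09. The difference was below 0 for 79.3% of these 87 genes, against 50.4% of all genes at base means of 100 or more, and was called for 3.

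**Figure D2:**
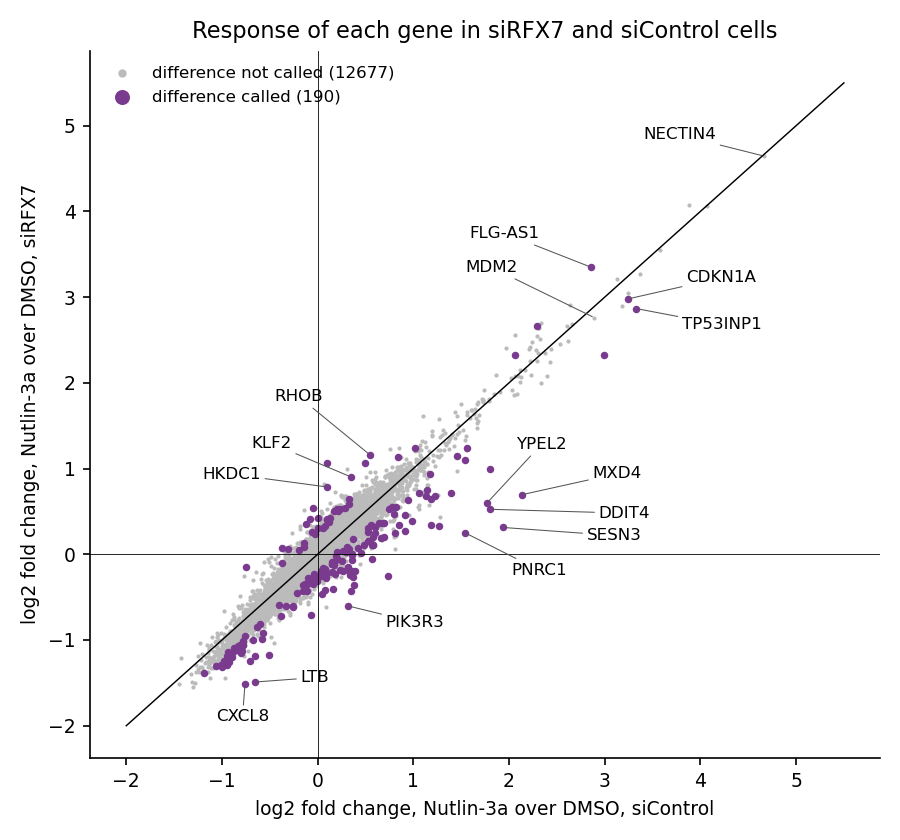
Each point is a gene whose base mean in siRFX7 was 100 or more, with its log2 response to Nutlin-3a in siControl (horizontal axis) and siRFX7 (vertical axis), and the diagonal marks equal responses. Purple points are the 190 genes whose difference was called, most of them below the diagonal, and NECTIN4 and MDM2 lie close to it.

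Genes of the p53 network were followed in 7 lists by role, written with earlier results of these data known. Together they held 108 genes with a row, of which 96 (88.9%) were called higher, 4 lower and 8 not called, against 18.7% and 20.3% of all genes. Their median response was 0.98 in siRFX7 and 1.01 in siControl in the authors' deposited tables, where the median of all genes tested was 0.0090 and 0.0039. For 91 of the 108 the 95% interval of the difference lay within 0.5, and 9 differences were called, 7 lower and 2 higher.

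The feedback regulators rose without a called difference. Of 5 genes, 4 were called higher, with a median of 0.97 in the authors' deposited table for siRFX7. MDM2 was at 2.76 ± 0.045 there against 2.89 ± 0.037 in siControl, a difference with a 95% interval of -0.24 to -0.014 (adjusted p 0.626). CCNG1, a cyclin that recruits phosphatase 2A to MDM2, rose in the authors' deposited table by 1.04 ± 0.044 and PPM1D, the phosphatase WIP1 that dephosphorylates p53, by 0.97 ± 0.039. The ubiquitin ligase COP1 rose by 0.17 ± 0.067 in the authors' deposited table, while RCHY1 (Pirh2) was at -0.060 ± 0.078 and not called.

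Of 10 arrest genes 8 rose, with a median of 0.80 in the authors' deposited table. CDKN1A rose by 2.98 ± 0.035 in siRFX7 and 3.24 ± 0.040 in siControl in the authors' deposited tables, so its response differed by -0.26 (95% interval -0.37 to -0.16, adjusted p 0.000305). Its level with siRFX7 was above siControl under both treatments, by 0.60 ± 0.040 (DMSO) and 0.33 ± 0.037 (Nutlin-3a) in the authors' deposited tables. BTG2, an antiproliferative cofactor of mRNA decay, rose by 2.66 ± 0.047 in the authors' deposited table, with a difference interval of -0.071 to 0.18. PLK3, PLK2, FBXW7, SFN (14-3-3 sigma) and GADD45A rose by 1.39, 0.91, 0.69, 0.66 and 0.59 in the authors' deposited table. GDF15, a secreted stress cytokine, had a response of 4.34 ± 0.30 there on a base mean of 74.7. The repressor E2F7 was not called in siRFX7 (0.060 ± 0.043 in the authors' deposited table, adjusted p 0.292) but rose in siControl (0.33 ± 0.042), and this difference was called (adjusted p 0.00254). PRDM1, a transcriptional repressor, was the 1 arrest gene called lower, at -0.27 ± 0.10 in the authors' deposited table.

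Nearly all apoptosis genes rose: 17 of 18 with a row were called higher, with a median of 0.67 in siRFX7 and 0.75 in siControl in the authors' deposited tables. TNFRSF10A and TNFRSF10D had no row. The death receptor FAS went from 419 to 2386 implied normalised counts (2.51 ± 0.062 in the authors' deposited table), and the BH3-only protein BBC3 (PUMA) from 233 to 1032 (2.15 ± 0.084). EDA2R, TP53I3, PIDD1, TNFRSF10B and the pore-forming protein BAX were at 1.91, 1.36, 1.29, 0.98 and 0.98 in the authors' deposited table. The smallest called rises were those of the adaptor TRAF4 (0.25 ± 0.042) and of PMAIP1 (NOXA, 0.27 ± 0.065) in the authors' deposited table, and the decoy receptor TNFRSF10C was not called (-0.15 ± 0.25, base mean 33.5). The antiapoptotic gene BCL2L1 rose as well, by 0.75 ± 0.040 in the authors' deposited table. TP53INP1, which promotes p53 phosphorylation and autophagy, was the 1 member with a called difference: 2.87 ± 0.076 in siRFX7 and 3.33 ± 0.067 in siControl in the authors' deposited tables (adjusted p 0.00143).

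Of 9 repair genes 6 rose and 2 fell. RRM2B, the p53-inducible subunit of ribonucleotide reductase, rose by 2.33 ± 0.045 in siRFX7 and 2.07 ± 0.048 in siControl in the authors' deposited tables, a larger rise with siRFX7 (adjusted p 0.0123). It stood lower with siRFX7 than with siControl under both treatments, at -0.74 ± 0.049 (DMSO) and -0.48 ± 0.045 (Nutlin-3a) in the authors' deposited tables. DDB2 and XPC, the damage sensors of nucleotide excision repair, rose by 1.51 ± 0.047 and 1.16 ± 0.052, in the authors' deposited table. PCNA, the replication clamp, fell by 0.26 ± 0.040 in siRFX7 and was at -0.041 ± 0.037 in siControl in the authors' deposited tables, a called difference (adjusted p 0.00816). FANCC of the Fanconi core complex fell by 0.60 ± 0.065 in the authors' deposited table.

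Metabolic targets rose in 18 of 20 cases, with medians of 0.80 and 0.81 in the authors' deposited tables for siRFX7 and siControl. FDXR, the reductase that feeds electrons to mitochondrial steroid and iron-sulfur synthesis, was at 2.34 ± 0.069, the ceramidase ACER2 at 2.47 ± 0.15 and the fructose bisphosphatase TIGAR at 1.40 ± 0.047 in the authors' deposited table. Among the sestrins, stress proteins that restrain mTORC1, SESN1 rose by 2.08 ± 0.069 in siRFX7 and 2.09 ± 0.065 in siControl in the authors' deposited tables. SESN2 rose by 1.24 ± 0.051 against 1.56 ± 0.050 in the authors' deposited tables, a smaller rise with siRFX7 (adjusted p 0.00244). SESN3, outside this list and among the genes that lost most of their rise, went from 209.5 to 260.2 implied normalised counts in siRFX7, and its response differed by -1.63. LPIN1 (0.017 ± 0.045) and CPT1C (-0.29 ± 0.17) were not called in the authors' deposited table, and SCO2 had no row.

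The longest list, targets in signalling and secretion, had 35 of 37 members higher and a median of 1.30 in the authors' deposited table, where siControl had 1.38. CYFIP2 (2.45 ± 0.055), the RNA-binding protein ZMAT3 (1.81 ± 0.046), RPS27L (1.80 ± 0.068) and PHLDA3, an inhibitor of AKT (1.68 ± 0.057), stood out in the authors' deposited table, and their difference intervals all lay within 0.5. TRIM22, an antiviral ubiquitin ligase, rose more with siRFX7 (2.67 ± 0.062 against 2.29 ± 0.051 in the authors' deposited tables, adjusted p 0.000948). The LIM protein FHL2 (1.15 ± 0.052 against 1.46 ± 0.042) and the tetraspanin CD82 (1.10 ± 0.065 against 1.54 ± 0.062) rose less with siRFX7 in the authors' deposited tables (adjusted p 0.000948 and 0.000319). THBS1, the secreted angiogenesis inhibitor thrombospondin-1, fell in the authors' deposited table by 0.86 ± 0.049, from 17822 to 9793 implied normalised counts. IER5 was not called (-0.11 ± 0.069 in the authors' deposited table), and SPATA18 and HES2 had no row.

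Noncoding targets rose in 8 of 9 cases. MIR34AHG, the host transcript of the microRNA miR-34a, rose by 1.78 ± 0.11 and NEAT1, the scaffold of paraspeckles, by 1.09 ± 0.11 in the authors' deposited table. PINCR (4.87 ± 0.65, base mean 21.8) and PURPL (2.54 ± 0.097, base mean 517) had the highest responses of the list in the authors' deposited table, and LINC-PINT was not called (0.084 ± 0.24). PANDAR had no row. Over all lincRNAs with a row 176 of 1249 rose and 43 fell, and over antisense RNAs with a row 132 of 1228 rose and 37 fell. Among protein-coding genes 3406 of 14447 rose and 3786 fell, and over all genes 18.7% rose and 20.3% fell. Median base means were 13.3 for lincRNAs and 12.6 for antisense RNAs, against 648 for protein-coding genes. The part of level in these counts was not tested. Since the count filter is not known, noncoding genes this low may have a row only through the group where they are high. Their rises and falls therefore cannot be weighed against each other. Processed pseudogenes rose in 128 and fell in 380 of 2829 cases, and since they resemble their parent genes, their reads are uncertain.

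**Figure D3:**
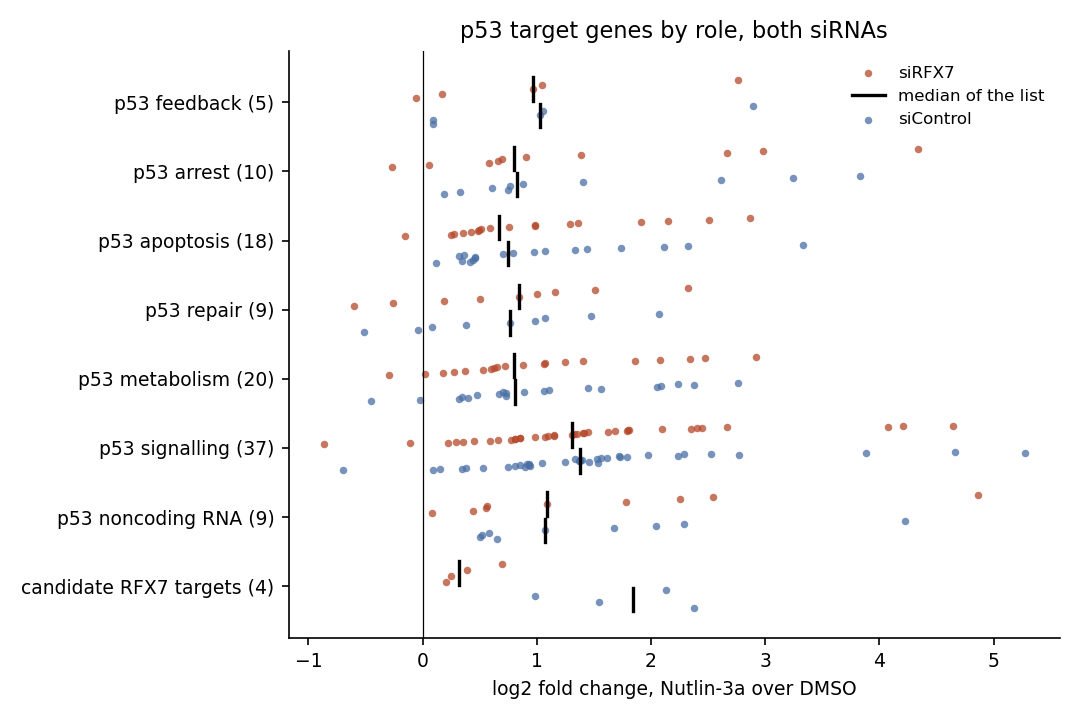
Log2 responses to Nutlin-3a (horizontal axis) of the genes of each p53 list and of the candidate RFX7 targets, with the number of genes in brackets, in siRFX7 (red) and siControl (blue), with the median of each as a black bar. The medians of the 7 p53 lists lie close together for both siRNAs, while the 4 candidate RFX7 targets have medians of 0.32 and 1.84.

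A p53 response element is a pair of half-sites with a short gap or none. The promoters of RefSeq (GRCh38.p14), 250 bases before to 50 after each start, were searched on both strands for 2 copies of the p53 half-site consensus 0 to 13 bases apart. Of 35116 promoters 10 (0.0285%) held one with every base matching, and 2 of these were among the 136 promoters of 93 p53 list genes found by symbol. They are shown because both genes rose, with the half-sites in capitals and any base between them in lower case. The match in DDB2 begins 5 bases after the start (chr11:47214979-47214999, plus strand) and that in PURPL 127 bases before it (chr5:27472165-27472184, plus strand).
DDB2: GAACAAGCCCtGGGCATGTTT
PURPL: GGGCTTGTCTGGGCATGCCC
A match is a description of these letters, and a promoter without one says only that the full pattern is not in this window.

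Genes of the cell cycle fell together. Of 107 genes in 3 lists, all with a row, 105 (98.1%) were called lower and 2 not called, against 20.3% of all genes. The median response was -1.05 in siRFX7 and -0.91 in siControl in the authors' deposited tables. The difference lay below 0 for 99 of the 107 and above 0 for 8, where 50.2% of all genes lay below 0. It was called for 14 genes, lower in siRFX7 for each, and its 95% interval was within 0.5 for 102.

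All 45 genes of G1/S and DNA replication fell, with a median of -1.17 in siRFX7 in the authors' deposited table and -1.03 in siControl. The replicative helicase subunits MCM2 to MCM7 fell by between 0.94 (MCM6) and 1.39 (MCM2) in the authors' deposited table. MCM2 (ENSG00000073111, chromosome 3, 127598223 to 127622436) went from 6709 to 2561 implied normalised counts, and its response differed from siControl by -0.20 (adjusted p 0.017). The activators E2F1 and E2F2 fell by 1.25 ± 0.048 and 1.52 ± 0.058, the licensing factor CDT1 by 1.38 ± 0.050 and the phosphatase CDC25A by 1.33 ± 0.050 in the authors' deposited table. CCNE1 (cyclin E1) fell by 0.61 ± 0.043 in siRFX7 and was at -0.33 ± 0.039 in siControl in the authors' deposited tables, the other called difference of this list (adjusted p 0.000463). Thymidylate synthase (TYMS, -0.34) and DNA ligase 1 (LIG1, -0.34) changed least in the authors' deposited table.

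The 43 genes of G2 and mitosis all fell too, with medians of -1.03 in siRFX7 and -0.85 in siControl in the authors' deposited tables. The difference was below 0 for 41 of them and called for 12. CKS2, a subunit of cyclin-dependent kinase complexes, had the most negative difference of the list: -1.19 ± 0.066 against -0.66 ± 0.040 in the authors' deposited tables, or -0.53 (95% interval -0.68 to -0.38, adjusted p 1.55e-08). The mitotic kinase PLK1 fell from 7924 to 3235 implied normalised counts in siRFX7, by 1.29 ± 0.041 in the authors' deposited table against -0.94 ± 0.045 in siControl (adjusted p of the difference 7.05e-06). CCNA2 (cyclin A2, -1.31 ± 0.040 against -1.0 ± 0.038) and CCNB1 (cyclin B1, -1.001 ± 0.038 against -0.68 ± 0.046) followed in the authors' deposited tables, with differences of -0.31 and -0.32. The other called differences were those of KIF2C (-0.35), CDC20 (-0.33), UBE2C (-0.28), KIF20A (-0.27), BIRC5 (-0.25), CCNB2 (-0.22), BUB1B (-0.21) and TPX2 (-0.20). PTTG1 (securin) fell least of the list, by 0.65 ± 0.051 in the authors' deposited table. The regulators FOXM1 and MYBL2 fell by 0.85 ± 0.033 and 0.98 ± 0.043 in the authors' deposited table, with difference intervals of -0.26 to -0.044 and -0.12 to 0.11.

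Genes of homologous recombination and the Fanconi pathway fell in 17 of 19 cases, with a median of -0.99 in the authors' deposited table. BRCA2 at -0.96 ± 0.082, FANCD2 at -0.99 ± 0.049 and EXO1 at -1.29 ± 0.058 in the authors' deposited table. The kinase ATR (0.030 ± 0.062) and PALB2 (-0.16 ± 0.069) were not called in the authors' deposited table, and no difference of this list was called. The 8 chromatin genes that fall in senescent cells were all lower, among them LMNB1 (lamin B1, -1.20 ± 0.035), HMGB2 (-1.06 ± 0.039) and EZH2 (-0.92 ± 0.055) in the authors' deposited table, and none had a called difference.

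**Figure D4:**
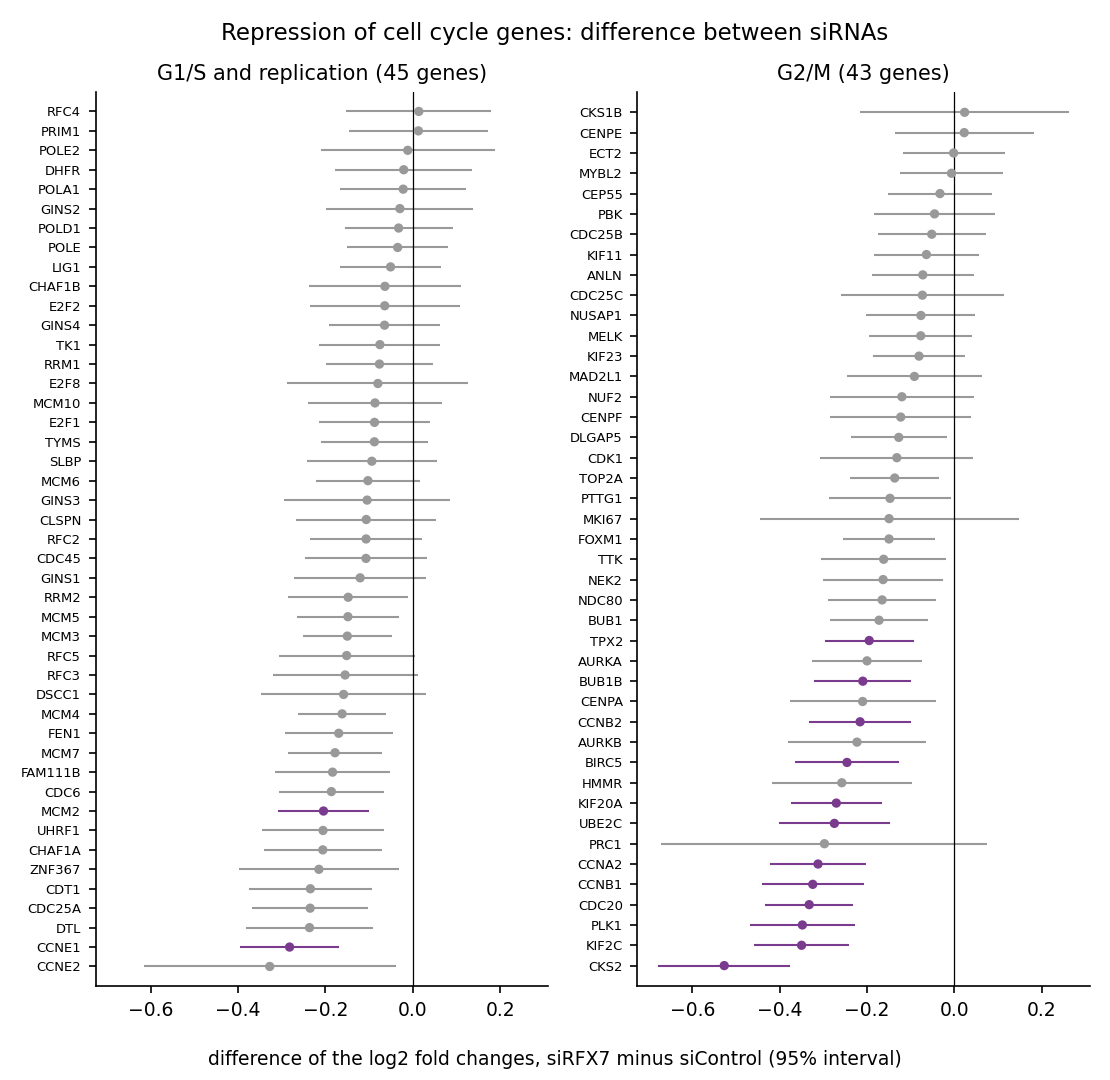
Difference of the log2 responses, siRFX7 minus siControl (horizontal axis), with its 95% interval, for the 45 G1/S and 43 G2/M genes, sorted within each list. Purple marks the 2 and 12 called differences, and 43 of 45 and 41 of 43 points lie left of 0.

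A pair of sequence features is known in promoters of these genes, so both were counted in the RefSeq promoters (GRCh38.p14) of the list members. The first is the CHR element, TTTGAA or TTTAAA, which is bound by the MuvB core of DREAM, and the second is TTTNNCGC, a form of the E2F site. Of 46 promoters of 36 G2/M genes found by symbol, 73.9% held TTTGAA or TTTAAA on either strand and 58.7% held TTTGAA, against 24.0% and 15.2% of all 35116 promoters. Of 46 promoters of 37 G1/S genes, 52.2% held TTTNNCGC on either strand, against 6.89% of all promoters. In the genes lower by at least 1 in siRFX7 at base means of 100 or more (170 promoters of 131 genes), 48.2% held TTTGAA or TTTAAA and 24.1% held TTTNNCGC, and in those higher by at least 1 (203 promoters of 118 genes) 16.3% and 4.93% did. Over the promoters of all genes at such base means these shares were 16.9% and 9.70%. The members were listed from knowledge of such genes, so these shares are not independent of the motifs. A match is not shown to be a site, and neither motif can overlap the other.

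The 80 bases before the start are shown for 7 G2/M genes whose repression was deeper with siRFX7 and whose window held the motif, with the CHR motif in capitals, which in CKS2 is the reverse complement of TTTGAA. They were read 5′ to 3′ on the gene's strand: BUB1B at chr15:40160989-40161068, CCNB1 at chr5:69167070-69167149, CCNB2 at chr15:59105066-59105145, CDC20 at chr1:43358901-43358980, CKS2 at chr9:89311115-89311194, KIF20A at chr5:138179032-138179111 and PLK1 at chr16:23678809-23678888, all on the plus strand.
BUB1B: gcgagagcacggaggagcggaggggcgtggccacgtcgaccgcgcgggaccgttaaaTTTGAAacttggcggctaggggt
CCNB1: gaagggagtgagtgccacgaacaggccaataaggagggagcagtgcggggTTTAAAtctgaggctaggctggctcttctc
CCNB2: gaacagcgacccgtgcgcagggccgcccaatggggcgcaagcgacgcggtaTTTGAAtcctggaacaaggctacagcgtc
CDC20: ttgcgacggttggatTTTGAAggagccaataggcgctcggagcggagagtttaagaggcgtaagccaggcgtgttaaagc
CKS2: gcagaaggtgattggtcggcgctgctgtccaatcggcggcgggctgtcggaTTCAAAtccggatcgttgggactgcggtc
KIF20A: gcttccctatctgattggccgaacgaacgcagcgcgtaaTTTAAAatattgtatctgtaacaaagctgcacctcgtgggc
PLK1: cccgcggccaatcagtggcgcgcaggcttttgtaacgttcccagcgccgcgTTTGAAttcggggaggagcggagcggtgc
In PLK1, CCNB2 and CKS2 the match began 29 bases before the start, in CCNB1 30 bases and in BUB1B 23 bases, while KIF20A had it at 41 bases and CDC20 at 65 bases. For the other G2/M genes with a called difference, KIF2C, CCNA2, UBE2C, BIRC5 and TPX2, no match in such a window was found. Promoters were found by symbol for 36 of the 43 G2/M genes, and a gene without one was not searched. The motif also stood in this window of G2/M genes without a called difference, among them CDC25C, CDK1 and MKI67. Its presence was therefore not particular to the deeper falls.

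For the G1/S list the same windows of E2F1 (chr20:33686386-33686465, minus strand), E2F2 (chr1:23531234-23531313, minus strand), CDC25A (chr3:48188418-48188497, minus strand) and CDT1 (chr16:88803709-88803788, plus strand) are shown, 4 regulators of S phase entry that fell by more than 1, with TTTNNCGC or its reverse complement in capitals.
E2F1: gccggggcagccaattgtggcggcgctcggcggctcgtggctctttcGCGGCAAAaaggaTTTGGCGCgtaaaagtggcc
E2F2: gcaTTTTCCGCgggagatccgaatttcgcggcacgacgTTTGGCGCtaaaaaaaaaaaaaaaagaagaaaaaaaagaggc
CDC25A: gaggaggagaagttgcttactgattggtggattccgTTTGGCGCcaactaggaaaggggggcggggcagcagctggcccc
CDT1: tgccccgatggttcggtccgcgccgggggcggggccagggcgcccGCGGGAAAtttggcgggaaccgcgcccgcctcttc
E2F1 and E2F2 hold a pair of matches in this window and CDC25A and CDT1 a single one.

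Growth and biosynthesis genes fell more mildly. Of 20 ribosome biogenesis genes 15 were called lower, against 20.3% of all genes and 31.5% of those at base means of 100 or more, with a median of -0.27 in the authors' deposited table. Nucleolin (NCL) fell by 0.38 ± 0.034 and the nucleolar chaperone NOLC1 by 0.51 ± 0.039 in the authors' deposited table. MYC, the transcription factor that drives ribosome synthesis, fell by 0.27 ± 0.044 in siRFX7 and was at -0.058 ± 0.041 in siControl in the authors' deposited tables (adjusted p of the difference 0.041). Of 24 cholesterol and fatty acid synthesis genes, read against the same shares, 16 fell and 1 rose, with a median of -0.21 in the authors' deposited table. INSIG1, which holds back the activators of the pathway when sterols are plentiful, fell most (-0.67 ± 0.060 in the authors' deposited table) and HMG-CoA synthase (HMGCS1) was at -0.43 ± 0.041.

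Some autophagy and stress genes rose mildly, in lists whose counts stand beside 18.7% of all genes called higher and 24.8% at base means of 100 or more. Of 24 autophagy and lysosome genes in the authors' deposited table, 13 rose and 1 fell, led by the cargo receptor SQSTM1 (p62) at 0.99 ± 0.044 and by WIPI1 at 0.95 ± 0.075, while MAP1LC3A had no row. GABARAPL1, which is anchored in autophagosome membranes, rose less in siRFX7 (0.55 ± 0.047 against 0.78 ± 0.045 in the authors' deposited tables, adjusted p 0.0448). Of 15 genes of the integrated stress response 9 rose and 1 fell, with DDIT3 (CHOP) at 0.49 ± 0.11 and ATF4 at 0.14 ± 0.043 in the authors' deposited table. Among 18 matrix genes 9 rose and 3 fell, from COL3A1 at -0.73 ± 0.11 to COL5A1 at 0.47 ± 0.052 in the authors' deposited table.

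Immune genes moved in both directions, in counts to be read against the 18.7% of all genes that rose and the 20.3% that fell. Of 16 interferon response genes in the authors' deposited table, 5 rose and 2 fell, with OAS1 at 0.90 ± 0.20, IFIT2 at 0.88 ± 0.14 and IFIT1 at -0.76 ± 0.18, while IRF7 had no row. In MHC class I presentation 4 of 16 rose and 1 fell: the peptide transporter TAP1, a p53 target, was at 0.96 ± 0.051 in the authors' deposited table, with a difference interval of -0.055 to 0.21. Reads of the class I genes can be shared between copies, which makes this count uncertain.

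Genes of inflammatory secretion were called about as often in each direction as all genes. Of 14 genes with a row, 2 rose (18.7% of all genes did), 3 fell (20.3% of all) and 9 were not called in the authors' deposited table, and IL1B, CXCL1 and CXCL2 had no row. Only 4 of the 14 reached a base mean of 100. Below that level, a response that was not called may be too small for these errors. The cytokine IL1A rose by 1.59 ± 0.16 there, with a difference interval of -0.45 to 0.44, and the stromelysin MMP3 rose by 0.37 ± 0.052 against 0.68 ± 0.057 in the authors' deposited tables (adjusted p of the difference 0.00906). The 3 chemokines that fell all had a response called lower than in siControl. CXCL8 went from 311 to 109 implied normalised counts in siRFX7, -1.51 ± 0.12 against -0.76 ± 0.11 in the authors' deposited tables (adjusted p of the difference 0.0014). CCL20 was at -1.21 ± 0.18 against -0.13 ± 0.15 and CCL2 at -0.71 ± 0.076 against -0.067 ± 0.070 in the authors' deposited tables (adjusted p 0.00133 and 4.4e-07). The base mean of CCL20 in siRFX7 was under 100. Before Nutlin-3a, under DMSO, CXCL8 and CCL2 stood higher with siRFX7 than with siControl, by 0.41 ± 0.097 and 0.32 ± 0.067, and under Nutlin-3a they stood at -0.34 ± 0.14 and -0.32 ± 0.079 in the authors' deposited tables, which share these libraries with the responses.

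Targets of DUX4, an activator of the early embryonic genome, rose in 8 of 10 cases with a row, against 18.7% of all genes. All were on base means under 100, and 18 genes had been listed. At base means of 10 to 100, 18.8% of all genes were called in either direction. The count filter is not known, so genes this low may have a row only through the group where they are high. KLF17 was called lower (-1.14 ± 0.37 in the authors' deposited table) and KHDC1L was not called (0.97 ± 0.52). ZSCAN4 went from 1.69 to 48.1 implied normalised counts (4.83 ± 0.60 in the authors' deposited table) and H3.Y from 5.06 to 63.9 (3.66 ± 0.38). The median of the list was 2.92 in siRFX7 and 4.53 in siControl in the authors' deposited tables, and 9 of 10 differences were below 0. Those of TRIM48 (-2.90) and H3.Y (-1.79) were called (adjusted p 0.0264 and 0.031). Most of these genes belong to families of near-identical copies, so shared reads make their values uncertain, and fold changes fitted from so few counts depend on the model.

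A small set of genes lost most of its induction. The 4 candidate RFX7 targets, which come from a published study that may have used these libraries and are not independent evidence, had 3 members called higher in siRFX7. PDCD4, an inhibitor of translation, rose by 0.39 ± 0.077 in siRFX7 and 0.99 ± 0.053 in siControl in the authors' deposited tables. Its difference of -0.60 was the smallest of the 4, next to PNRC1 (-1.30), the MYC antagonist MXD4 (-1.44) and PIK3IP1, an inhibitor of PI3-kinase (-2.17). PIK3IP1 was the member not called in siRFX7, and 3 of the 4 reached a base mean of 100. At base means of 100 or more the difference was called for 1.48% of all genes, lower for 1.19% and higher for 0.288%. Of the 7238 genes still called in siRFX7 at that level, 159 had a called difference, 127 lower and 32 higher. They include deeper falls: of the 200 called differences over all levels, 66 were of genes that rose in both, 46 of genes that fell in both and 26 of genes called lower in siRFX7 and not called in siControl. After SESN3, MXD4, PNRC1 and DDIT4, the most negative among the 159 were YPEL2 (0.60 ± 0.075 against 1.77 ± 0.071), the atypical cyclin CCNG2 (0.33 ± 0.11 against 1.27 ± 0.061), PIK3R3, described below, and RAB40B (0.34 ± 0.11 against 1.18 ± 0.10) in the authors' deposited tables. The levels with siRFX7 relative to siControl were not alike under DMSO for the 3 that rose: YPEL2 was at 0.25 ± 0.081, CCNG2 at -0.60 ± 0.090 and RAB40B at 0.028 ± 0.12 in the authors' deposited table. Under Nutlin-3a all 3 were lower with siRFX7, at -0.92 ± 0.068, -1.54 ± 0.072 and -0.81 ± 0.096 in the authors' deposited table. These levels share their libraries with the responses by which the 3 were chosen, so they are not separate evidence. GTTGCC, a form of the half-site in the X-box that RFX proteins are known to bind, stood in 14.4% of the 111 RefSeq promoters of 64 genes that rose in siControl with a response called lower in siRFX7 (84 such genes, base means of 100 or more), on either strand, and in 12.2% of all promoters, which says nothing of RFX7 itself.

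In 15 genes the response was called in opposite directions and the difference was called as well. Of these, 14 fell in siRFX7 and rose in siControl in the authors' deposited tables. PIK3R3 (ENSG00000117461, chromosome 1, 46040140 to 46133036), a regulatory subunit of PI3-kinase, went from 581 to 382 implied normalised counts in siRFX7. Its responses in the authors' deposited tables were -0.60 ± 0.078 and 0.32 ± 0.052, a difference of -0.92 (adjusted p 2.05e-19). TSPYL2, a nucleosome assembly protein that restrains the cell cycle, had -0.43 ± 0.062 and 0.35 ± 0.051 in the authors' deposited tables (adjusted p of the difference 7.31e-19). RFX5, the family member that activates MHC class II genes, had -0.27 ± 0.051 and 0.37 ± 0.039, and the AP-1 factor JUNB -0.19 ± 0.058 and 0.36 ± 0.069, in the authors' deposited tables. Further values were those of the transcription factor SOX4 (-0.36 ± 0.079 and 0.38 ± 0.084), TNFAIP3, which limits NF-kB (-0.19 ± 0.059 and 0.23 ± 0.050), and IER3 (-0.23 ± 0.043 and 0.18 ± 0.052) in the authors' deposited tables. The rest of the 14 were IL4I1, NEDD9, TSC22D1, SLC43A2, VGLL4, ID3 and TSPAN5, with differences from -1.10 (IL4I1) to -0.27 (TSPAN5). The base mean of IL4I1 in siRFX7 was under 100. The reverse, higher in siRFX7 and lower in siControl, was seen for NLN, the peptidase neurolysin (0.13 ± 0.042 and -0.14 ± 0.038 in the authors' deposited tables, adjusted p of the difference 0.000551). Of the 16 genes called in opposite directions, the lincRNA LINC00944 was the 1 without a called difference.

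**Figure D5:**
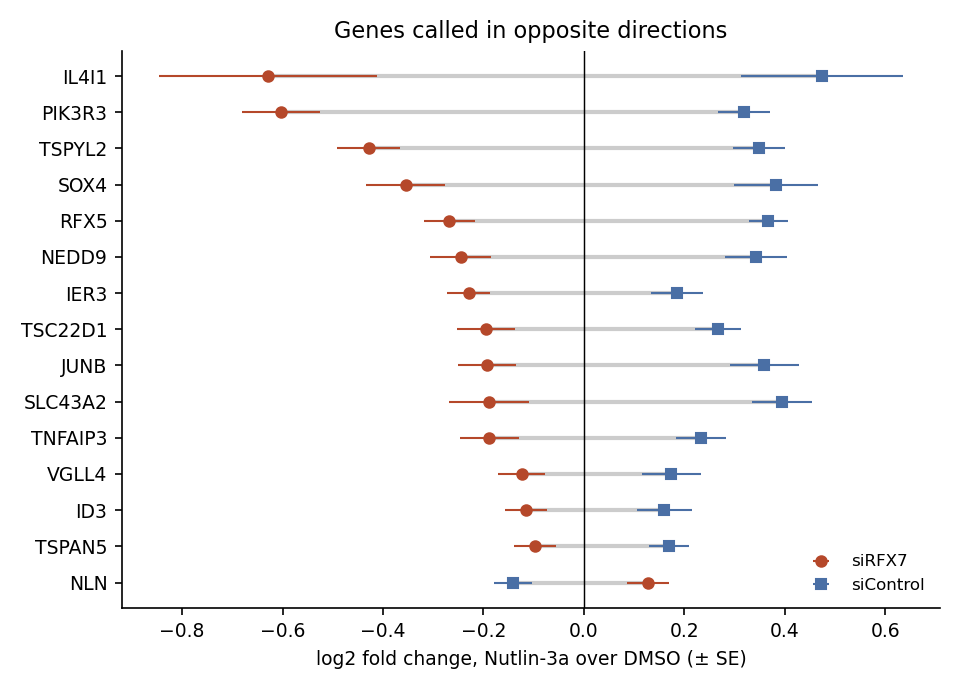
Log2 responses to Nutlin-3a (horizontal axis) with the authors' SE for the 15 genes called in opposite directions whose difference was called, in siRFX7 (red circles) and siControl (blue squares). The siRFX7 response is below 0 and the siControl response above 0 for every gene but NLN.

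Responses that were larger with siRFX7 were fewer. RHOB, a stress-inducible GTPase of endosomes (ENSG00000143878, chromosome 2, 20447074 to 20449445), went from 3818 to 8511 implied normalised counts in siRFX7, 1.16 ± 0.042 against 0.55 ± 0.040 in the authors' deposited tables (difference 0.61, adjusted p 6.82e-22). KLF2, a zinc finger factor that keeps endothelium and lymphocytes quiescent, rose by 0.90 ± 0.062 against 0.35 ± 0.090 in the authors' deposited tables (adjusted p 0.000243). Both stood higher with siRFX7 under DMSO already, by 0.51 ± 0.045 and 0.71 ± 0.078 in the authors' deposited table. HKDC1, a hexokinase, rose in siRFX7 (0.78 ± 0.096 in the authors' deposited table) and was not called in siControl (0.10 ± 0.11), a called difference (adjusted p 0.000717). SNAPC1, a subunit of the snRNA-activating complex, rose by 0.41 ± 0.068 against -0.077 ± 0.055 in the authors' deposited tables, from a level under DMSO that was -1.61 ± 0.058 relative to siControl. FLG-AS1 (3.35 ± 0.10 against 2.85 ± 0.082) and the pseudogenes WFDC21P (1.06 ± 0.11 against 0.49 ± 0.099), RPS6P25 (0.54 ± 0.13 against -0.054 ± 0.10) and AL162151.2 (1.06 ± 0.15 against 0.10 ± 0.15) complete the largest positive differences in the authors' deposited tables. Shared or antisense reads make these 4 uncertain.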

How the data were processed

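Poly(A) RNA of U2OS cells was measured in 16 libraries, 4 a group. Per the submitters' processing notes, bcl2fastq 2.19.1.403, Trimmomatic 0.39, cutadapt 2.10, FastQC 0.11.9, SAMtools 1.10, Picard, featureCounts 1.6.5 and DESeq2 1.20.0 were used with hg38. The aligner, the strand setting and the count filter are not given in the sources used here. Per the file headers, the authors deposited for each gene the base mean (a signal per library, the mean normalised count), the log2 fold change with its SE, the Wald statistic (a score), the p-value and the adjusted p-value of DESeq2. These files hold no counts per library, so depth per library is not known and the deposited tests were used as they stand. The 4 comparisons were checked against each other over 19344 genes, which cannot detect a reversal of all 4 at once. Directions were therefore also read from the signs of RFX7, CDKN1A and MDM2, so those signs are not separate evidence.

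Computed here were implied counts per treatment, difference tests, list counts and motif counts (Python 3.11.15, numpy 2.4.6, pandas 2.3.3, scipy 1.17.1, matplotlib 3.10.9). The difference test takes the SEs of both tables as known. It was run on simulated data with normal errors drawn from these same SEs, which cannot check whether the SEs themselves are right. Genes and lists were chosen with earlier results of these data known. Named genes were the 15 highest and 15 lowest responses at a base mean of at least 100. The 5 largest gains and 5 largest losses in counts were taken among called genes at any level. The 8 most negative and 8 most positive called differences were taken among genes called in siRFX7 at a base mean of at least 100. Genes called in opposite directions, at any level, and list members were named too. p-values measure the spread between these libraries. Some genes are not reported here.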

Additional observations from a re-analysis of the deposited data

Results flagged for a closer look

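For 65 of the genes named by rule or list, the response to Nutlin-3a with siRFX7 differed from that with siControl in the test of the difference itself, lower for 54 and higher for 11. Values below are the difference of the log2 responses, siRFX7 minus siControl, each past an adjusted p of 0.05 over 21339 genes, computed from the authors' deposited tables. No explanation was tested.

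The candidate RFX7 targets and the genes named for the most negative differences (called in siRFX7, base means of 100 or more, with PIK3R3 given further on) were PIK3IP1 (-2.17), SESN3 (-1.63), MXD4 (-1.44), PNRC1 (-1.30), DDIT4 (-1.28), YPEL2 (-1.17), CCNG2 (-0.94), RAB40B (-0.84) and PDCD4 (-0.60). Of these, PIK3IP1 was not called in siRFX7. Among p53 targets the response was lower for TP53INP1 (-0.46), CD82 (-0.44), SESN2 (-0.32), FHL2 (-0.31), E2F7 (-0.27), CDKN1A (-0.26) and PCNA (-0.22) and higher for TRIM22 (0.38) and RRM2B (0.26). In the cell cycle lists the fall was deeper for CKS2 (-0.53), KIF2C (-0.35), PLK1 (-0.35), CDC20 (-0.33), CCNB1 (-0.32), CCNA2 (-0.31), CCNE1 (-0.28), UBE2C (-0.28), KIF20A (-0.27), BIRC5 (-0.25), CCNB2 (-0.22), BUB1B (-0.21), MCM2 (-0.20) and TPX2 (-0.20). Genes of inflammation with a lower response were CCL20 (-1.08, on a base mean under 100), LTB (-0.83), CXCL8 (-0.75), CCL2 (-0.64) and MMP3 (-0.31).

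Genes called in opposite directions were IL4I1 (-1.10, on a base mean under 100), PIK3R3 (-0.92), TSPYL2 (-0.78), SOX4 (-0.74), RFX5 (-0.64), NEDD9 (-0.59), SLC43A2 (-0.58), JUNB (-0.55), TSC22D1 (-0.46), TNFAIP3 (-0.42), IER3 (-0.41), VGLL4 (-0.30), ID3 (-0.28) and TSPAN5 (-0.27), all lower with siRFX7, and NLN (0.27), higher with siRFX7. Other named genes with a lower response were GABARAPL1 (-0.23), MYC (-0.21) and ACTG1 (-0.19). The embryonic genes TRIM48 (-2.90) and H3.Y (-1.79) rest on low counts and on copies that share reads. Larger rises with siRFX7 were seen for HKDC1 (0.68), RHOB (0.61), KLF2 (0.55) and SNAPC1 (0.49), and, with reads that may be shared or antisense, for AL162151.2 (0.96), RPS6P25 (0.59), WFDC21P (0.57) and FLG-AS1 (0.50).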

How the results depend on the processing

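The 8355 calls of the siRFX7 response became 6834 at an adjusted p under 0.01, 7575 when only base means of 100 or more were tested, and 8384 after centring on the median of those genes, with 4428 higher and 3956 lower. Tested against a change of 0.25, 2782 genes passed (1476 higher, 1306 lower), and with a size of at least 1 added, 862 passed (595 higher, 267 lower). In siControl these counts were 2795 and 929. Of the 200 called differences, 125 remained at 0.01 (103 lower, 22 higher), 14 against a change of 0.25 (13 lower, 1 higher) and 14 with a size of at least 1 (14 lower, 0 higher), all of them among the 200. Dividing the statistics by their robust SD gave 251. With a size of at least 1, 53 of the 96 p53 list genes and 62 of the 105 cell cycle genes passed. For the median difference of induced genes, the sign turned from -0.063 to 0.030 when they were chosen in siRFX7. Of these settings only centring can change the sign of a response. Under it, no called response or difference among the 453 genes of the rules and lists changed sign. Of the responses of these genes, 225 were no longer called with a size of at least 1, and 106 against a change of 0.25.

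No paired analysis was possible because the deposited tables hold no value of a single library. For the same reason the fit with each library left out, and another count model or normalisation, were not run. Depth limits genes with a base mean under 10, where the median SE was 0.649.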
